A study of Mus musculus with 4 samples.

Results

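Enzymes that add or remove histone acetyl and methyl groups, and Brd proteins that bind acetylated histones, were examined in mouse pachytene spermatocytes, the meiotic germ cells in which homologous chromosomes are fully paired. Members were chosen by gene symbol: every protein-coding gene whose symbol begins with Kmt, Kdm, Kat, Hdac, Setd, Prmt, Ezh, Sirt or Brd and a number, other than Kmt2a to Kmt2d, Setd1a and Setd1b, with an expected count of at least 10 in at least 2 libraries. The symbols matched 72 genes, of which 70 reached the minimum, among 55364 genes in the tables. Hdac8 and Prmt8 did not reach it. All 4 libraries reached the minimum for 68 of the 70. Setd7 reached it in 3 libraries, and Kdm5d in the KK libraries alone. One symbol match, Brd3os, is not a bromodomain gene and was kept in the count without a role class.

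The KK libraries came from homozygous Ddx4 knock-in mice, in which the gene of an RNA helicase of germ granules (the vasa homolog) is modified, and the WT libraries from wild-type mice. Each genotype had 2 libraries of total RNA from testis cells digested in steps and separated by centrifugal elutriation. The labels give no age, strain or inserted sequence, and do not say whether libraries 1 and 2 of a genotype are different animals, so the p-values measure the spread between these libraries, which may be technical. The series title names phase-separated germ granules and RNA homeostasis as its subject.

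Histone acetyltransferases place acetyl groups on lysines, deacetylases and sirtuins remove them, and bromodomains bind them. Lysine and arginine methyltransferases place methyl groups, and demethylases of the LSD and Jumonji families remove them from lysines. In male meiosis these marks are rewritten on a large scale, and in pachytene cells the unpaired X and Y chromosomes are packed into transcriptionally silent chromatin, the sex body.

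Total expected counts were 19438570 and 17970207 in the KK libraries and 18156099 and 19246124 in the WT libraries. Ddx4 itself had 54.4 and 52.5 TPM (transcript abundance per unit of length, scaled to the same total in every library) in the KK libraries, against 265 and 273 TPM in the WT libraries. It was 5.05-fold lower in KK (log2 fold change -2.34 ± 0.04 SE, edgeR adjusted p = 6.81e-27). Pachytene markers were abundant in all libraries, with a summed level of 17368 and 17235 TPM over 19 genes in KK and 18494 and 18335 TPM in WT; 12 of the 19 fell and 1 rose. Leydig cell markers rose in 11 of 12 genes and fell in 0, and summed to 2554 and 2639 TPM in KK, against 736 and 772 TPM in WT. Among spermatogonial markers 8 of 12 tested genes rose and 1 fell, with sums of 82.3 and 89.6 TPM in KK and 63.7 and 112 TPM in WT. Spermatid markers split into 6 that rose and 7 that fell of 14, with sums of 18922 and 18324 TPM in KK and 21354 and 21227 TPM in WT. Sertoli markers rose in 1 and fell in 5 of 10 tested genes, with sums of 142 and 149 TPM in KK and 161 and 162 TPM in WT. Macrophage markers rose in 3 of 6 tested genes, with sums of 7.53 and 11.7 TPM in KK and 4.03 and 5.75 TPM in WT, and peritubular and endothelial markers rose in 3 of 7, with sums of 10.3 and 8.14 TPM in KK and 7.03 and 7.29 TPM in WT. The part of other cell types in the results on histone enzymes was not tested.

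The 70 genes changed more often downward than upward. In KK 29 members were lower, 41.4% of them, beside 21.7% of all 16571 tested genes. Another 11 were higher, 15.7%, beside 22.0% of all tested genes. In all, 40 of 70 passed in one direction or the other, beside 43.7% of all tested genes. The remaining 30 did not pass an adjusted p of 0.05 (edgeR's quasi-likelihood test over all genes, Benjamini-Hochberg adjustment). The median log2 fold change was -0.17 for the members and 0.00 for all tested genes. In bulk RNA, fewer cells of a type and less RNA per cell cannot be told apart.

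The share of fallers also differed with expression level. Among tested genes with a mean of at least 10 CPM (counts scaled to library size with TMM factors; the limit was chosen after the data were seen), 36.9% were lower in KK and 20.6% higher. Of the 47 members at this level, 28 were lower (59.6%) and 7 higher (14.9%), and their median log2 fold change was -0.20, beside -0.08 for all genes at that level. Of the 23 members under 10 CPM, 1 was lower (4.35%) and 4 were higher (17.4%), beside 6.07% lower and 23.4% higher of all tested genes under 10 CPM. CPM did not overlap between genotypes for 57 members, 39 lower and 18 higher in KK, beside 70.8% of all tested genes; all 40 called members were among them. Most changes were small: 8 risers and 5 fallers moved 1.5-fold or more, and only Hdac9 and Kat2b reached a log2 fold change of 1 in size.

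**Figure D1:**
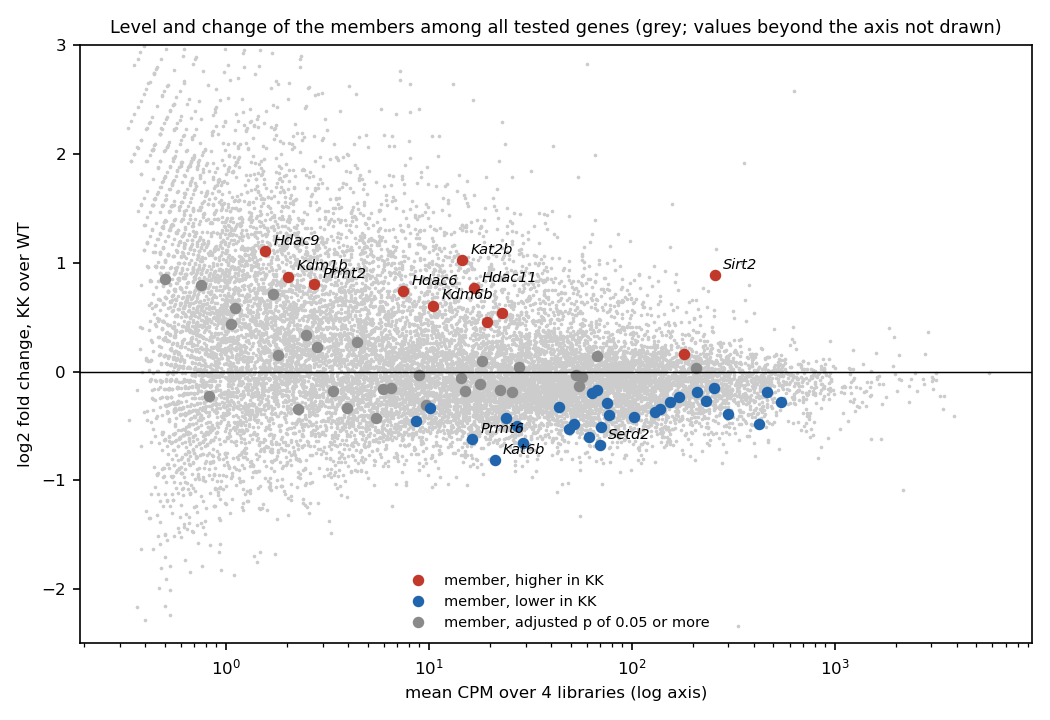
Log2 fold change of KK over WT against mean CPM over the 4 libraries (log axis) for the 70 members, coloured by call, and all tested genes in grey. The 28 called fallers at 10 CPM or more lie close under the zero line, between -0.81 and -0.15, and Sirt2, at 0.88, and Kat8, at 0.16, are the called risers furthest to the right.

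The balance of rises and falls varied between role classes in the counts. Lysine methyltransferases (8 of 12 lower, 0 higher) and Brd genes (6 of 7 lower, 0 higher) held the largest shares of fallers. Lysine demethylases had 8 lower and 2 higher of 18, acetyltransferases 3 lower and 2 higher of 8, arginine methyltransferases 2 lower and 1 higher of 7, and sirtuins 1 of each among 7. The zinc-dependent histone deacetylases (HDACs) had 5 higher and 1 lower of 10. Of all tested genes 21.7% were lower and 22.0% higher, and of those with at least 10 CPM 36.9% and 20.6%. Acetyltransferases, at 37.5% lower and 25.0% higher, lay near the second pair of shares. Arginine methyltransferases had 28.6% lower and 14.3% higher, demethylases 44.4% and 11.1%, and sirtuins 14.3% of each. In lysine methyltransferases and Brd genes the risers also numbered 0 at an unadjusted edgeR p under 0.05, and 0 with DESeq2. The classes are small, and no difference between classes was tested.

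**Figure D2:**
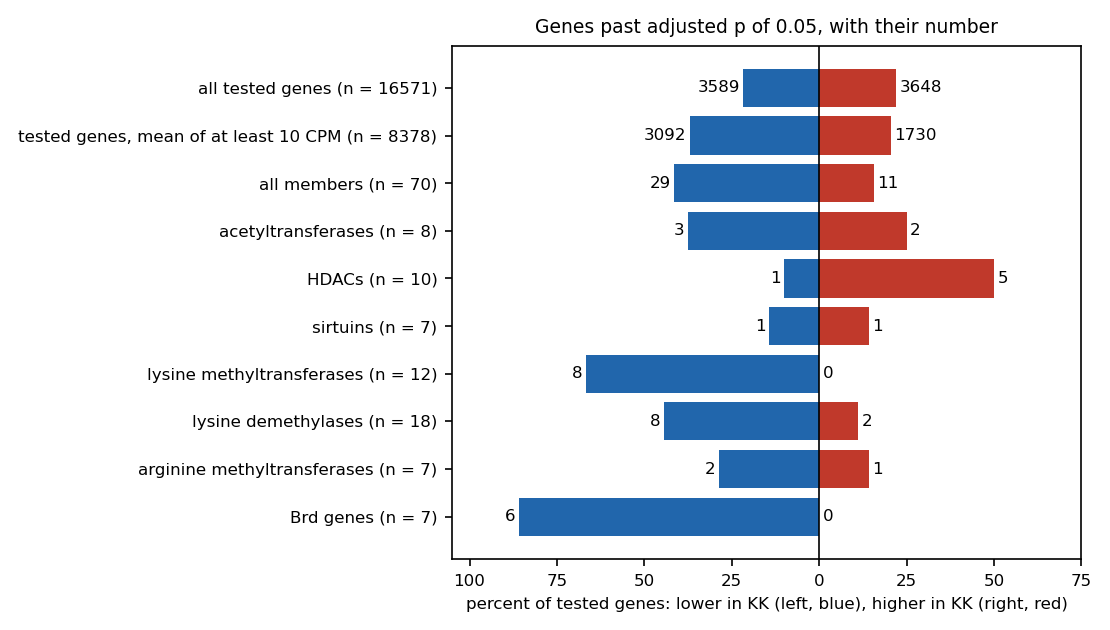
Percent of tested genes lower in KK (left, blue) and higher in KK (right, red) at an adjusted p of 0.05 for all tested genes, those with at least 10 CPM, all members and each role class, with the number of genes at each bar. The bars of lysine methyltransferases and Brd genes extend to the left alone, and that of the HDACs mostly to the right.

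The summed TPM of all members was 2596 and 2689 in KK and 2878 and 2818 in WT, a ratio of 0.928. By class, the sum was lowest against WT for lysine methyltransferases, with 229 and 225 TPM in KK and 305 and 296 TPM in WT, a ratio of 0.753. Demethylases summed to 444 and 459 TPM in KK and 573 and 557 TPM in WT, a ratio of 0.799. For sirtuins the sum was higher in KK, 404 and 428 TPM, than in WT, 302 and 291 TPM, and Sirt2 was the only one of the 7 that rose.

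**Figure D3:**
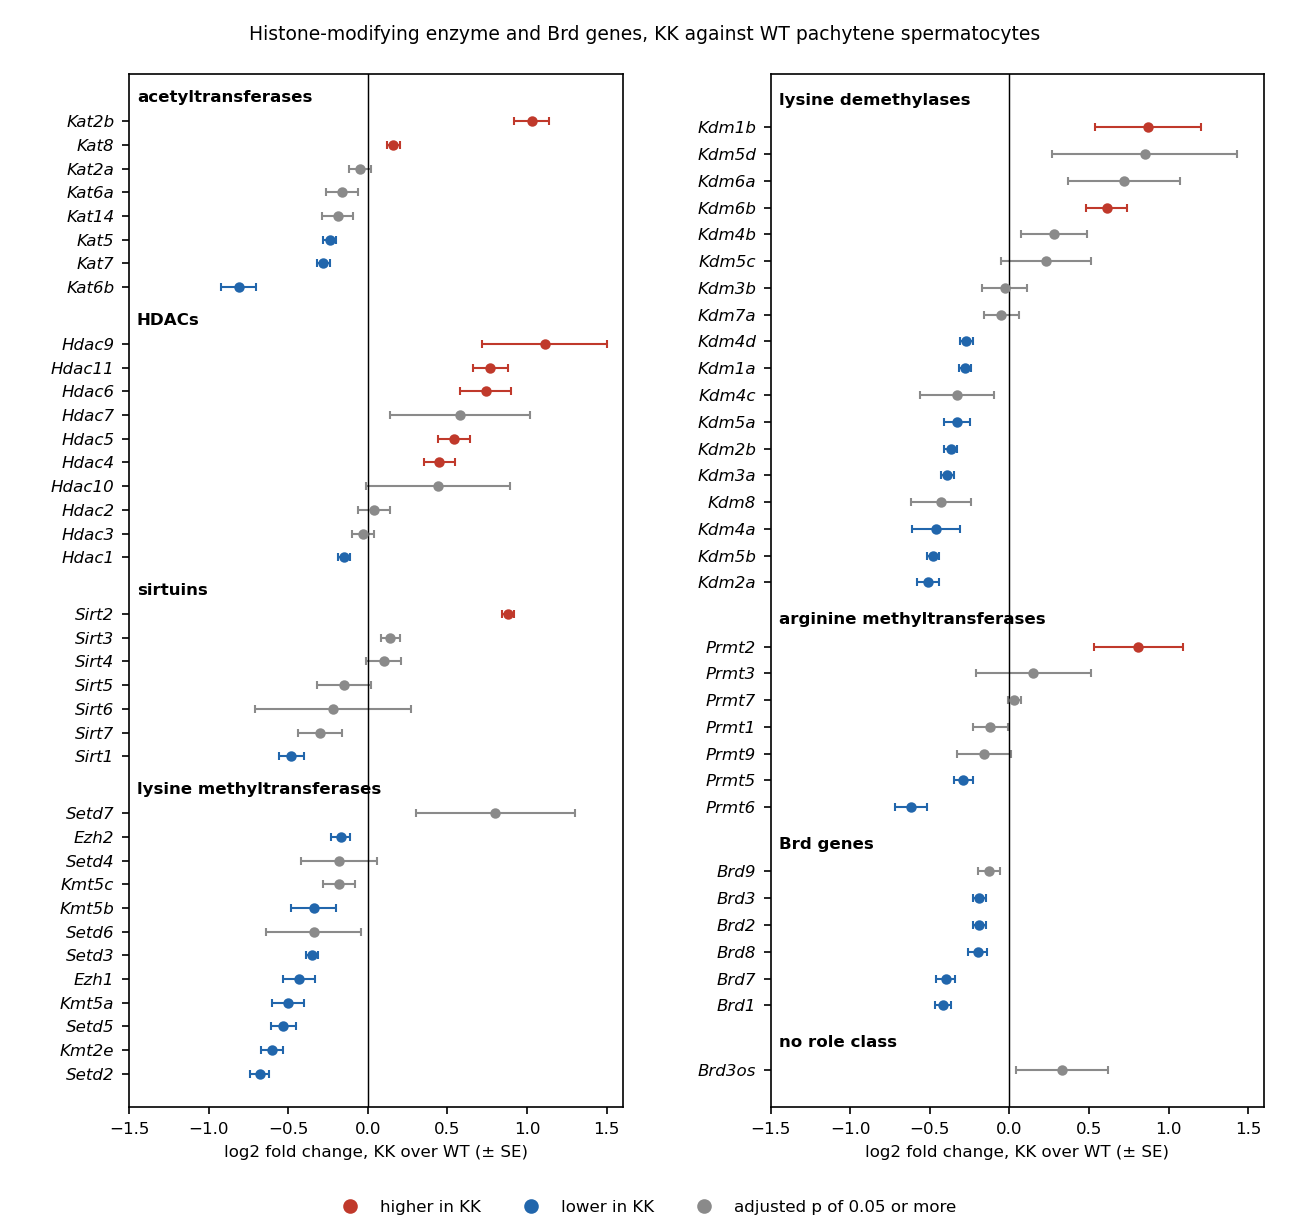
Log2 fold change of KK over WT (points) with its standard error (bars) for 69 members, by role class. Red points passed an adjusted p of 0.05 upward, blue points downward, and grey points did not pass; the values run from -0.81 (Kat6b) to 1.11 (Hdac9).

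Promoters are shown for the 3 largest rises and the 3 largest falls among called members with a mean of at least 5 TPM and a RefSeq start within 500 bases of the annotated gene start, since these genes carry the size of the changes described next. Each sequence runs from 250 bases before the transcription start to 50 bases from it on, read from the RefSeq table of GRCm38.p6 in the direction of transcription. Capitals mark CCAAT, the motif bound by NF-Y, on either strand (ATTGG on the reverse strand). The first 3 genes rose and the last 3 fell.
Kat2b (chr17:53566721-53567020, + strand): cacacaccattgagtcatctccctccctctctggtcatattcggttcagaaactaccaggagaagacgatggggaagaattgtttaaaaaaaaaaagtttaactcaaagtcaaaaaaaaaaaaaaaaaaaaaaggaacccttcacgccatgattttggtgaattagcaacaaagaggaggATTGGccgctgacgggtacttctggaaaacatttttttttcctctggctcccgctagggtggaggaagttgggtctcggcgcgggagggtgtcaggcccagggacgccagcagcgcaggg
Sirt2 (chr7:28766502-28766801, + strand): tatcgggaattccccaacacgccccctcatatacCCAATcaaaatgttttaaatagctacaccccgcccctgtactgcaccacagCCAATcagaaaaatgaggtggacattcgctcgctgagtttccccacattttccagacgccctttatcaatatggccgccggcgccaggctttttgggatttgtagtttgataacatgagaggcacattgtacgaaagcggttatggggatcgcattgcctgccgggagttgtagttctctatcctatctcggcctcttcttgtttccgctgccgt
Hdac11 (chr6:91156565-91156864, + strand): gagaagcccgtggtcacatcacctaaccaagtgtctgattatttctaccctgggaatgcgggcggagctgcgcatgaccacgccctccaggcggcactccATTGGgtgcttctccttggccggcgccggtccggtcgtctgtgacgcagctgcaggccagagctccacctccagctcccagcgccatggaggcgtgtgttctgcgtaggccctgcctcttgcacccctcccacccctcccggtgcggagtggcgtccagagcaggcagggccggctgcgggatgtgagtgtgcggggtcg
Setd2 (chr9:110532347-110532646, + strand): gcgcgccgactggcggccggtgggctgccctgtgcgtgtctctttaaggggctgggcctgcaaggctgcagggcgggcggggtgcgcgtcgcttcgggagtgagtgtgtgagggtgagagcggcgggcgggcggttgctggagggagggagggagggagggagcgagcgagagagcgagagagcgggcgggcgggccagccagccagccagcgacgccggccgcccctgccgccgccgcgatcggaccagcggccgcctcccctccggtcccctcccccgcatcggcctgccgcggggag
Prmt6 (chr3:110250950-110251249, - strand): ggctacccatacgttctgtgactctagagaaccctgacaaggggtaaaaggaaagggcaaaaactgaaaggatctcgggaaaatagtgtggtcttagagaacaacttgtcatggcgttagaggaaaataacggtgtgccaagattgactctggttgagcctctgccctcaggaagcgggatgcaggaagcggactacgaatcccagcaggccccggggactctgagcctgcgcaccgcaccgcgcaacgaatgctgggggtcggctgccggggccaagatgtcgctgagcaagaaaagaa
Kmt5a (chr5:124439680-124439979, + strand): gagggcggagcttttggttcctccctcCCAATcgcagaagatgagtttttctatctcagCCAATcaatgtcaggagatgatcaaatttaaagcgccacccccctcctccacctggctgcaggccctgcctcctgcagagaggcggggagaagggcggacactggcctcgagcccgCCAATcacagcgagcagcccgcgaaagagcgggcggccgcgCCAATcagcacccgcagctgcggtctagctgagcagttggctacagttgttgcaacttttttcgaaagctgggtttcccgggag
Among these, CCAAT stood once in the Kat2b and Hdac11 promoters, at 2 places in that of Sirt2 and at 4 in that of Kmt5a. The letters did not occur in the windows of Setd2 and Prmt6. A promoter was matched for 58 members, 52 of them within 500 bases of the gene start. CCAAT was found in 7 of 9 promoters of members that rose (77.8%), 10 of 18 of those that fell (55.6%) and 7 of 25 of those not called (28.0%), beside 37.4% of the 32851 promoters of the table. The Myb-type motif AACNGTT, searched on both strands, was found in 0 of 9, 1 of 18 (5.56%) and 1 of 25 (4.0%), beside 4.45% of all promoters. These counts are descriptions of a few short windows.

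Acetyltransferases held the second largest rise and the largest fall of all members. Kat2b, which encodes PCAF, an acetyltransferase of the SAGA and ATAC complexes (chromosome 17, 53566861 to 53672720, GRCm38), had 13.4 and 13.6 TPM in the KK libraries, against 8.28 and 8.58 TPM in the WT libraries. Its normalised count was 2.04-fold higher in KK (log2 fold change 1.03 ± 0.11, edgeR adjusted p = 1.75e-08), and its log2 fold change was 0.66 with effective length as an offset (adjusted p = 0.0066). Kat6b, the MORF acetyltransferase (chromosome 14, 21481434 to 21672478), had 2.97 and 3.01 TPM in KK, against 4.74 and 5.62 TPM in WT. It was 1.76-fold lower (log2 fold change -0.81 ± 0.11, edgeR adjusted p = 3.48e-07). Both genes kept their genotypes apart in every library.

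Kat7, which encodes the HBO1 acetyltransferase, was the most abundant of the class, at 192 and 205 TPM in KK and 246 and 238 TPM in WT. The fall was 1.21-fold (log2 fold change -0.28 ± 0.04, edgeR adjusted p = 4.35e-07). Kat5, the Tip60 acetyltransferase of the NuA4 complex, fell by a similar amount (-0.24 ± 0.04, adjusted p = 2.76e-05); 12.1% of its exon bases are shared with Rnaseh2c on the other strand, whose reads cannot be told apart from its own here because the kit does not mark strand. Kat8, or MOF, an acetyltransferase of histone H4, had 188 and 199 TPM in KK, against 175 and 174 TPM in WT, a rise of 1.12-fold (log2 fold change 0.16 ± 0.04, edgeR adjusted p = 0.00198), and the call was lost under limma on log2(TPM + 1) and with effective lengths (adjusted p = 0.0672 and 0.0603). Kat2a, the close paralog of Kat2b, Kat6a and Kat14 did not pass, with log2 fold changes of -0.05, -0.16 and -0.19. The paralogs Kat2b and Kat2a gave 1.03 and -0.05, and Kat6b and Kat6a -0.81 and -0.16, a difference between paralogs that was not tested.

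The rises among the HDACs were all in classes II and IV. Of 7 such genes 5 rose (71.4%) and 0 fell, with a median log2 fold change of 0.58, beside 22.0% and 21.7% of all tested genes. The count of HDACs that rose dropped to 2 under limma on log2(TPM + 1) and to 3 with effective length offsets. The other 2, Hdac7 and Hdac10, had log2 fold changes of 0.58 and 0.44 and did not pass. Hdac11, the class IV enzyme (chromosome 6, 91156665 to 91174692), had 12.9 and 14.3 TPM in KK, against 7.61 and 6.54 TPM in WT. It was 1.70-fold higher (log2 fold change 0.77 ± 0.11, edgeR adjusted p = 9.18e-07). Hdac5, a class IIa enzyme that shuttles between nucleus and cytoplasm, had 19.6 and 19.9 TPM in KK, against 13.9 and 14.5 TPM in WT, and was 1.45-fold higher (0.54 ± 0.10, adjusted p = 8.13e-05). Its class IIa relative Hdac4 had 7.86 and 8.73 TPM in KK, against 5.24 and 6.70 TPM in WT (0.45 ± 0.10, adjusted p = 0.00065), a call lost under limma on log2(TPM + 1) and with effective lengths (adjusted p = 0.132 and 0.0518). In each of the 3 genes both KK values lay above both WT values. Of the Hdac4 level, the noncoding isoform Hdac4-208 held 2.86 and 3.77 TPM in KK, against 0.08 and 1.51 TPM in WT. The coding Hdac4-205 was higher in KK (1.64 and 1.55 TPM, against 0.55 and 0.96 TPM in WT). The coding Hdac4-206 was lower (0 and 0 TPM, against 1.52 and 0.86 TPM in WT). Hdac4-202 had 1.70 and 1.54 TPM in KK and 1.72 and 1.82 TPM in WT, and Hdac4-201 overlapped between genotypes. Of the Hdac5 level, the short retained-intron isoform Hdac5-218 held 11.67 and 11.69 TPM in KK, against 9.4 and 7.13 TPM in WT. The coding Hdac5-202 and Hdac5-204 overlapped between genotypes.

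Hdac6, an X-linked class IIb enzyme that deacetylates tubulin, had 3.37 and 3.16 TPM in KK, against 1.66 and 2.12 TPM in WT. The rise was 1.67-fold (log2 fold change 0.74 ± 0.16, edgeR adjusted p = 0.00043), and the call was lost under limma (adjusted p = 0.0675). Hdac9, class IIa, showed the largest log2 fold change of all members on few reads, with 0.90 and 1.00 TPM in KK, against 0.42 and 0.54 TPM in WT. Its expected counts were 34 and 48 in KK and 12 and 24 in WT (log2 fold change 1.11 ± 0.39, edgeR adjusted p = 0.0232). The call was lost without WT library 1 (0.73, adjusted p = 0.218) and without KK library 2 (0.77, adjusted p = 0.235). As given above, Leydig cell, spermatogonial, macrophage, and peritubular and endothelial markers also held more risers than fallers. Pachytene, spermatid and Sertoli markers held more fallers. The part of any cell type in these HDAC rises was not tested.

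Class I HDACs, the catalytic subunits of the Sin3, NuRD, CoREST and NCoR corepressors, counted 1 that fell and 0 that rose among 3. Hdac1, the most abundant HDAC, had 180 and 185 TPM in KK, against 208 and 193 TPM in WT. It was 1.11-fold lower (log2 fold change -0.15 ± 0.04, edgeR adjusted p = 0.00234), a call lost without WT library 1 (-0.11, adjusted p = 0.0981). Hdac2 and Hdac3 gave 0.04 and -0.03, with overlapping libraries, and did not pass. The summed level of the 10 HDACs was close in the genotypes, 287 and 294 TPM in KK and 300 and 285 TPM in WT, with Hdac1 as its largest part.

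Sirt2 gave the rise with the smallest adjusted p of all members. The gene, on chromosome 7 at 28766735 to 28788661, encodes a mainly cytoplasmic NAD-dependent deacetylase of tubulin and histone H4. It had 273 and 289 TPM in KK, against 157 and 151 TPM in WT, and was 1.85-fold higher (log2 fold change 0.88 ± 0.04, edgeR adjusted p = 1.89e-16). In WT it ranked below Kat7, Brd2, Hdac1, Kat5 and Kat8 in TPM, and in KK above all other members. The main isoform held 81.12% and 83.23% of its transcripts in KK and 83.54% and 85.98% in WT. Only 0.834% of its exon bases overlap Nfkbib on the other strand.

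Sirt1, the nuclear deacetylase of histones and transcription factors, went the other way, with 16.7 and 15 TPM in KK, against 21.8 and 22.3 TPM in WT. It was 1.40-fold lower (log2 fold change -0.48 ± 0.08, edgeR adjusted p = 5.73e-06). Of the mitochondrial sirtuins, Sirt3 gave 0.14 (adjusted p = 0.0782), Sirt4 0.10 and Sirt5 -0.15, and none of these passed. The nuclear Sirt6 and Sirt7 gave -0.22 and -0.30 (adjusted p = 0.751 and 0.0719). For Sirt4 the scales differed in sign: TPM was 17.0 and 20.1 in KK, against 21.6 and 25.3 in WT, while the normalised count was not lower.

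**Figure D4:**
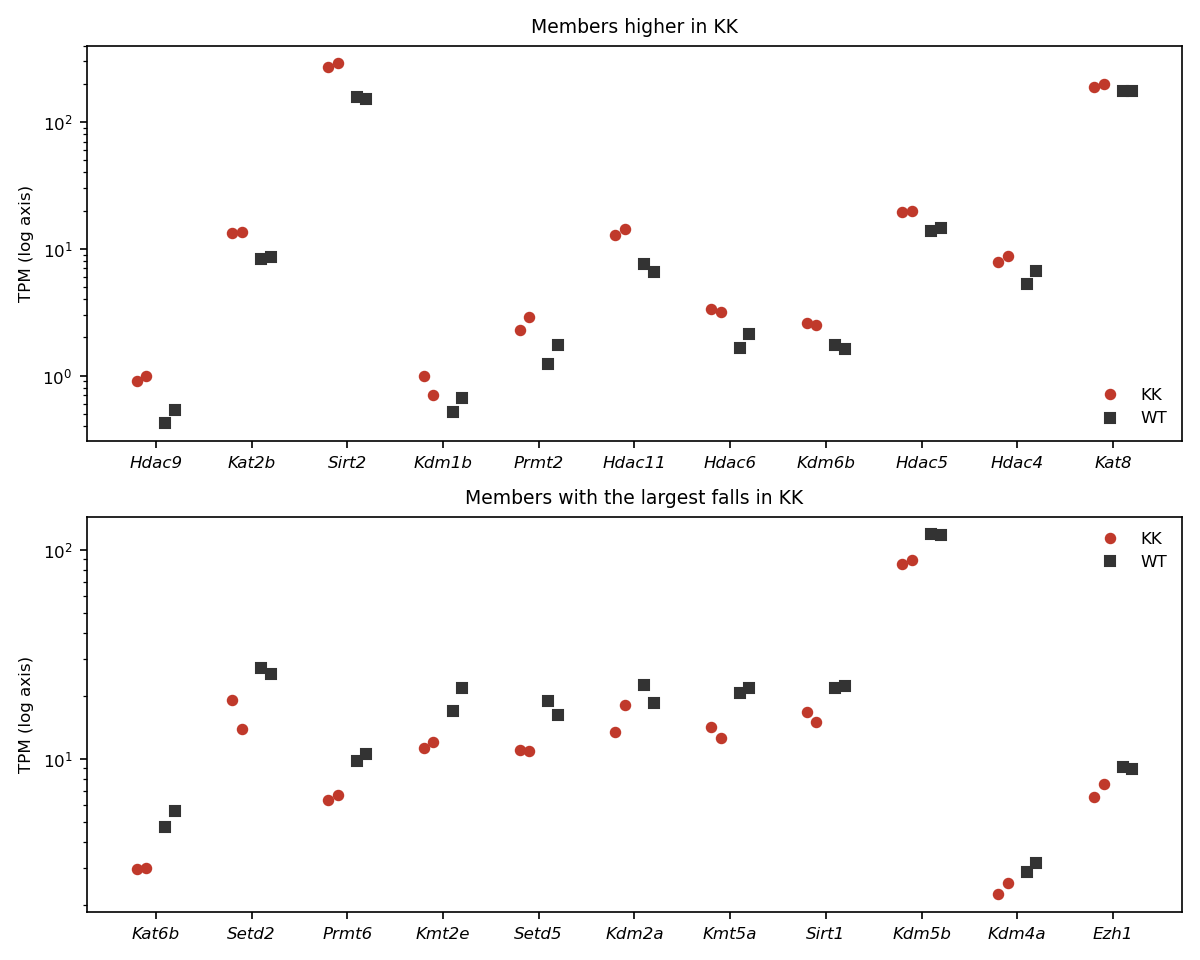
TPM (log axis) in each library of the 11 members that rose and of 11 with large falls, KK as red circles left of WT as black squares. The genotypes do not overlap in TPM for any of the 22 genes; Kdm1b and Kdm2a come closest.

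Among lysine methyltransferases 8 of 12 genes fell and the median log2 fold change was -0.34. Setd2, which trimethylates histone H3 along transcribed gene bodies (chromosome 9, 110532597 to 110618633), had 19.1 and 13.9 TPM in KK, against 27.1 and 25.4 TPM in WT. It was 1.6-fold lower (log2 fold change -0.68 ± 0.06, edgeR adjusted p = 5.55e-10). Kmt2e and Setd5, related SET-domain proteins with little or no known catalytic activity, fell together. Kmt2e had 11.3 and 12 TPM in KK, against 17.0 and 21.9 TPM in WT (-0.60 ± 0.07, adjusted p = 2.08e-08). Setd5 had 11 and 10.9 TPM in KK, against 18.8 and 16.2 TPM in WT (-0.53 ± 0.08, adjusted p = 1.29e-06). Srpk2, expressed from the other strand, covers 9.31% of the exon bases of Kmt2e. It had 3378 and 3247 counts in KK, against 3771 and 4214 in WT, more than Kmt2e (935 and 937, against 1295 and 1388). The part of Srpk2 reads in the Kmt2e fall was not tested.

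Kmt5a, which monomethylates histone H4, had 14.2 and 12.6 TPM in KK, against 20.6 and 21.8 TPM in WT. The fall was 1.41-fold (log2 fold change -0.50 ± 0.10, edgeR adjusted p = 0.000107). Its relative Kmt5b, which adds further methyl groups to the same residue, gave -0.34 (adjusted p = 0.0482), but its TPM overlapped between genotypes (5.87 and 3.90 in KK, 4.93 and 4.34 in WT). The sign of its log2 fold change turned on the TPM scale and with effective lengths (0.04 and 0.06), and the call was lost without WT library 1, WT library 2 or KK library 2 (adjusted p = 0.162, 0.0612 and 0.345). The third of these genes, Kmt5c, gave -0.18 and did not pass. Setd3, which methylates actin but was counted in this class and its sum, fell (-0.35 ± 0.04, adjusted p = 1.71e-07). It had 69.5 and 73.3 TPM in KK and 89.0 and 84.5 TPM in WT.

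The alternative catalytic subunits of Polycomb repressive complex 2 (PRC2) both fell. Ezh1 had 6.56 and 7.55 TPM in KK, against 9.17 and 8.96 TPM in WT (log2 fold change -0.43 ± 0.10, edgeR adjusted p = 0.000574), a call lost under limma (adjusted p = 0.153). Ezh2, the most abundant lysine methyltransferase of the set by mean gene TPM over all libraries, had 73.4 and 71.8 TPM in KK, against 99.5 and 91.5 TPM in WT. Of this level, the short retained-intron isoform Ezh2-213 held 29.1 and 28.7 TPM in KK, against 49.9 and 38.9 TPM in WT. The largest coding isoform, Ezh2-202, held 31.2 and 31.9 TPM in KK, against 35.9 and 34.7 TPM in WT. Coding Setd3-201 was higher in every library (56.15 and 58.92 TPM in KK, 76.31 and 74.0 TPM in WT). The fall of Ezh2 depended on the scale: -0.17 ± 0.06 in normalised counts (adjusted p = 0.028), but -0.41 with effective lengths (adjusted p = 0.00597). In counts the call was lost without WT library 1, WT library 2 or KK library 2 (adjusted p = 0.0922, 0.0805 and 0.122). Setd4, Setd6 and Setd7, at low levels, gave -0.18, -0.34 and 0.80 and did not pass.

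Lysine demethylases had a median log2 fold change of -0.28. Of the 16 Jumonji enzymes, which need iron and oxoglutarate, 7 fell (43.8%) and 1 rose (6.25%), beside 21.7% and 22.0% of all tested genes. Kdm5b, an eraser of histone H3 methylation at active promoters (chromosome 1, 134560171 to 134635285), had 85.5 and 89.2 TPM in KK, against 118 and 117 TPM in WT. It was 1.40-fold lower (log2 fold change -0.48 ± 0.04, edgeR adjusted p = 1.97e-11). Kdm3a, which in mouse spermatids is needed for protamine and transition protein expression, had 79.8 and 82.4 TPM in KK, against 110 and 104 TPM in WT (-0.39 ± 0.04, adjusted p = 1.49e-09). Kdm4d, a testis-enriched enzyme and the most abundant demethylase, had 110 and 116 TPM in KK, against 138 and 135 TPM in WT (-0.27 ± 0.04, adjusted p = 1.51e-06). In each of these abundant genes both KK values lay below both WT values.

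Both CxxC-domain demethylases, which bind unmethylated CpG islands, fell. Kdm2a had 13.5 and 18.1 TPM in KK, against 22.6 and 18.5 TPM in WT (log2 fold change -0.51 ± 0.07, edgeR adjusted p = 4.59e-07), but with effective lengths the value was -0.40 (adjusted p = 0.0837). Kdm2b gave -0.37 ± 0.04 (adjusted p = 6.28e-08). Kdm4a had 2.25 and 2.56 TPM in KK, against 2.88 and 3.18 TPM in WT (-0.46 ± 0.15, adjusted p = 0.0124), a call lost without WT library 2 or KK library 1 (adjusted p = 0.0502 and 0.0978). Kdm5a gave -0.33 ± 0.08 in counts (adjusted p = 0.00113) and -0.08 with effective lengths (adjusted p = 0.544), with overlapping TPM. Kdm4b, Kdm4c, Kdm3b, Kdm7a and Kdm8 did not pass, with log2 fold changes between -0.43 and 0.28.

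The Jumonji enzyme that rose was Kdm6b, which removes the methyl marks placed by PRC2. It had 2.59 and 2.50 TPM in KK, against 1.74 and 1.62 TPM in WT, and was 1.52-fold higher (log2 fold change 0.61 ± 0.13, edgeR adjusted p = 0.000333), a call lost under limma (adjusted p = 0.112). The flavin-dependent pair split. Kdm1a, or LSD1, gave -0.28 ± 0.04 (adjusted p = 2.19e-06) at 67.0 and 68.6 TPM in KK and 81.3 and 82.7 TPM in WT. Kdm1b, or LSD2, had 1.00 and 0.70 TPM in KK, against 0.52 and 0.67 TPM in WT (0.87 ± 0.33, adjusted p = 0.0309). The Kdm1b call was lost without WT library 1, KK library 1 or KK library 2 (adjusted p = 0.239, 0.098 and 0.0526), and 9.19% of its exon bases are shared with Dek, expressed from the other strand.

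Members on the sex chromosomes numbered 4: Hdac6, Kdm5c and Kdm6a on the X and Kdm5d on the Y. Of 568 tested X-linked genes 57.6% were higher in KK and 1.06% lower, so the Hdac6 rise stood among many. Kdm6a, the X-linked relative of Kdm6b, had 1.15 and 0.84 TPM in KK, against 0.52 and 0.44 TPM in WT, and did not pass (log2 fold change 0.72 ± 0.35, edgeR adjusted p = 0.0941). Kdm5c, at 0.56 and 1.17 TPM in KK and 0.67 and 0.86 TPM in WT, overlapped between genotypes (0.23 ± 0.28, adjusted p = 0.544). Its Y-linked partner Kdm5d had 14 and 11 counts in KK, against 5 and 8 in WT (0.85 ± 0.58, adjusted p = 0.247). The 66 autosomal members held 10 risers and 29 fallers.

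Arginine methyltransferases had a median log2 fold change of -0.12, with single genes between -0.62 and 0.81. Prmt6, which dimethylates histone H3 asymmetrically (chromosome 3, 110246109 to 110250998), had 6.35 and 6.69 TPM in KK, against 9.74 and 10.5 TPM in WT. It was 1.54-fold lower (log2 fold change -0.62 ± 0.10, edgeR adjusted p = 1.52e-05). Of its exon bases 23.4% are shared with C130013H08Rik on the other strand, which had 10 and 9 counts in KK and 8 and 13 in WT. Prmt5, the main symmetric dimethylating enzyme, which acts on PIWI and Sm proteins as well as histones, fell 1.22-fold (-0.29 ± 0.06, adjusted p = 0.000335), a call lost under limma (adjusted p = 0.0572). Prmt2 had 2.31 and 2.89 TPM in KK, against 1.24 and 1.73 TPM in WT (0.81 ± 0.28, adjusted p = 0.0212), a call lost without WT library 1 (0.58, adjusted p = 0.165) or KK library 2 (0.63, adjusted p = 0.134). Prmt7, the most abundant of the class, had 88.1 and 89.9 TPM in KK and 87.0 and 84.6 TPM in WT, a log2 fold change of 0.03 ± 0.04 (adjusted p = 0.57). Prmt1, the main asymmetric enzyme of most tissues, gave -0.12, and Prmt3 and Prmt9 gave 0.15 and -0.16, none of which passed.

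The Brd genes all had negative log2 fold changes, and 6 of 7 passed, a count that dropped to 2 under limma on log2(TPM + 1) and to 4 with effective length offsets. Brd2, a BET protein that binds acetylated histone H4 and the most abundant member by its mean over all libraries, had 216 and 233 TPM in KK, against 247 and 260 TPM in WT (-0.19 ± 0.04, adjusted p = 0.000281), a call lost under limma (adjusted p = 0.069). The BET gene Brd3 gave the same log2 fold change (-0.19 ± 0.04, adjusted p = 0.000222), with overlapping TPM, and -0.08 with effective lengths (adjusted p = 0.293). Brdt, the testis-specific BET gene, is outside the symbol rule and was looked up after the values were seen. It had 228 and 226 TPM in KK, against 252 and 272 TPM in WT (-0.29 ± 0.04, adjusted p = 1.78e-07).

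Brd1, a scaffold of HBO1 and MOZ complexes, and Brd7, a subunit of a SWI/SNF complex, fell more, with log2 fold changes of -0.42 ± 0.05 and -0.40 ± 0.06 (edgeR adjusted p = 8.76e-08 and 1.34e-06). For Brd7 the difference was larger on the TPM scale, with 34.5 and 35.3 TPM in KK, against 56.4 and 51.6 TPM in WT, and -0.65 with effective lengths. Part of this gene-level TPM lay in short noncoding isoforms, such as Brd7-207 (4.61 and 6.33 TPM in KK, 9.9 and 10.64 TPM in WT). The coding Brd7-201 had 25.93 and 23.29 TPM in KK, against 31.93 and 31.83 TPM in WT. Brd8, a NuA4 subunit, gave -0.20 ± 0.06 (adjusted p = 0.0111), a call lost without WT library 1 (adjusted p = 0.079). Brd9, the other SWI/SNF member, gave -0.13 and did not pass. The summed level of the 7 genes was 470 and 479 TPM in KK and 541 and 554 TPM in WT, a ratio of 0.867.

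Genes of the same pathways outside the symbol rule were counted from lists of complex subunits and related enzymes. Of 50 other acetyltransferases and complex subunits 22 fell and 10 rose (median log2 fold change -0.18). Trrap, the scaffold of SAGA and NuA4, had 15.7 and 16.4 TPM in KK, against 30.7 and 35.1 TPM in WT (-0.77 ± 0.05, edgeR adjusted p = 5.92e-13). Naa40, which acetylates the amino termini of histones H4 and H2A, gave -0.70 ± 0.04 (adjusted p = 1.05e-13). Tada2a, the ATAC adaptor that binds the Kat2 enzymes, had 1.97 and 2.12 TPM in KK, against 0.83 and 0.91 TPM in WT (1.31 ± 0.32, adjusted p = 0.00153). Jade2, an HBO1 scaffold, gave 1.28 ± 0.32 (adjusted p = 0.00178), a call lost without KK library 1 (0.93, adjusted p = 0.0618).

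Among 37 corepressor subunits 20 fell (54.1%) and 7 rose (18.9%), beside 36.9% and 20.6% of all tested genes with at least 10 CPM. The count of fallers dropped to 9 under limma on log2(TPM + 1). Phf21a, a CoREST subunit, had 51.2 and 59.0 TPM in KK, against 82.5 and 82.9 TPM in WT (log2 fold change -0.77 ± 0.05, edgeR adjusted p = 1e-13), and the Sin3 subunit Arid4a gave -0.79 ± 0.11 (adjusted p = 1.46e-06, and 0.0628 under limma). Rcor2, a CoREST scaffold, and the X-linked histone chaperone Rbbp7 rose, with 1.07 ± 0.29 and 1.04 ± 0.15 (adjusted p = 0.00376 and 2.04e-06); the Rcor2 call was lost under DESeq2 (adjusted p = 0.062). Of 7 tested PRC2 subunits in a list without the Ezh enzymes, 4 fell (57.1%) and 0 rose. Rbbp7, which rose, and Rbbp4 (-0.04, adjusted p = 0.442) are also PRC2 subunits but were counted with the corepressors. Suz12, a core subunit, had 6.99 and 6.92 TPM in KK, against 12.4 and 11.3 TPM in WT (-0.72 ± 0.09, adjusted p = 2.14e-07), and the accessory Aebp2 gave -0.66 ± 0.09 (adjusted p = 1.44e-06).

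Other histone methyltransferases fell in 7 (33.3%) and rose in 2 (9.52%) of 21 genes, with a median log2 fold change of 0.03. All tested genes with at least 10 CPM fell in 36.9% and rose in 20.6%. Of the enzymes that methylate histone H3 in heterochromatin, Suv39h2, testis-enriched in mouse, had 15.7 and 15.9 TPM in KK, against 8.34 and 7.21 TPM in WT (1.05 ± 0.10, edgeR adjusted p = 8.77e-10), and X-linked Suv39h1 gave 0.96 ± 0.23 (adjusted p = 0.00111). In the same list Setdb1 and Ehmt2 fell (-0.23 and -0.11, adjusted p = 0.00102 and 0.0235), and Ehmt1 and Setdb2 did not pass (0.64 and 0.08). Dot1l, which methylates the histone H3 core, and Ash1l fell, with -0.44 ± 0.04 and -0.63 ± 0.10 (adjusted p = 3.82e-10 and 7.6e-06); the Ash1l call was lost under limma (adjusted p = 0.0991). Of 9 other demethylase genes 2 rose and 2 fell (22.2% each), near the shares of all tested genes. Phf2 had 48.3 and 50.2 TPM in KK, against 89.3 and 87.2 TPM in WT (-0.84 ± 0.04, adjusted p = 2.87e-16). X-linked Phf8 gave 1.47 ± 0.13 in counts (adjusted p = 4.9e-10), but 0.89 with effective lengths (adjusted p = 0.131). Y-linked Uty (0.99, adjusted p = 0.0421) and Jmjd1c (-0.13, adjusted p = 0.0461) lost the call when single libraries were left out: Uty without WT library 2, KK library 1 or KK library 2 (adjusted p = 0.0772 to 0.288), and Jmjd1c without WT library 1, WT library 2 or KK library 2 (adjusted p = 0.0649 to 0.267).

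Of 27 other bromodomain genes 17 fell (63.0%) and 4 rose (14.8%), with a median log2 fold change of -0.35. All tested genes with at least 10 CPM fell in 36.9% and rose in 20.6%. Ash1l was counted in this list and among the other methyltransferases, so the lists are not separate sets of genes. Baz2b, a chromatin remodeler subunit, had 33.4 and 36.5 TPM in KK, against 47.5 and 47.6 TPM in WT (-0.59 ± 0.05, edgeR adjusted p = 2.07e-10). The largest called rises of the list were X-linked. Brwd3 gave 1.00 ± 0.24 (adjusted p = 0.00134, and 0.1 under limma), and Taf1, the largest subunit of TFIID, 0.84 ± 0.28 (adjusted p = 0.015). The other called risers, Trim66 and Atad2, were autosomal, with 0.74 ± 0.10 and 0.60 ± 0.10 (edgeR adjusted p = 6.12e-07 and 1.39e-05). Autosomal Zmynd8, at 1.04 ± 0.50, did not pass (edgeR adjusted p = 0.0905). The Taf1 call was lost without WT library 1 (0.45, adjusted p = 0.25) or KK library 1 (0.78, adjusted p = 0.0515), and the value was 1.39 without WT library 2.

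The deposited isoform shares, the percent of a gene's transcripts held by each isoform, were described without a test. An isoform was counted when the genotypes did not overlap and their means differed by at least 20 percentage points, in genes with at least 50 counts in every library. This held in 5 of 57 members (8.77%), beside 7.37% of 9482 genes. Kat2b-203, a short coding isoform, held 54.17% and 49.71% of Kat2b transcripts in KK, against 30.36% and 27.02% in WT. The retained-intron isoform Kat2b-207 held 5.56% and 14.46% in KK, against 36.15% and 45.4% in WT, on 1 to 5 counts per library. Sirt4-204, also a retained intron, was at 0 counts in both KK libraries, against 23 and 30 counts in WT, and the coding Sirt4-202 held 48.79% and 59.57% in KK, against 34.22% and 22.11% in WT. For both genes TPM and normalised counts gave different fold changes, as described above.

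Hdac4-208, a noncoding transcript, held 36.38% and 43.2% in KK, against 1.48% and 22.52% in WT, so the WT libraries lay far apart. Kdm4a-204 was at 0 in both KK libraries, against 100% and 39.44% in WT, so its WT libraries lay further apart still. The coding Kdm4a-203, of similar length, held 68.61% and 76.58% in KK, against 0% and 49.37% in WT. Setd4-209 held 16.57% and 33.65% in KK, against 44.6% and 48.78% in WT. Isoform estimates for genes with few reads rest on few distinguishing positions, and no isoform test was run.

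**Figure D5:**
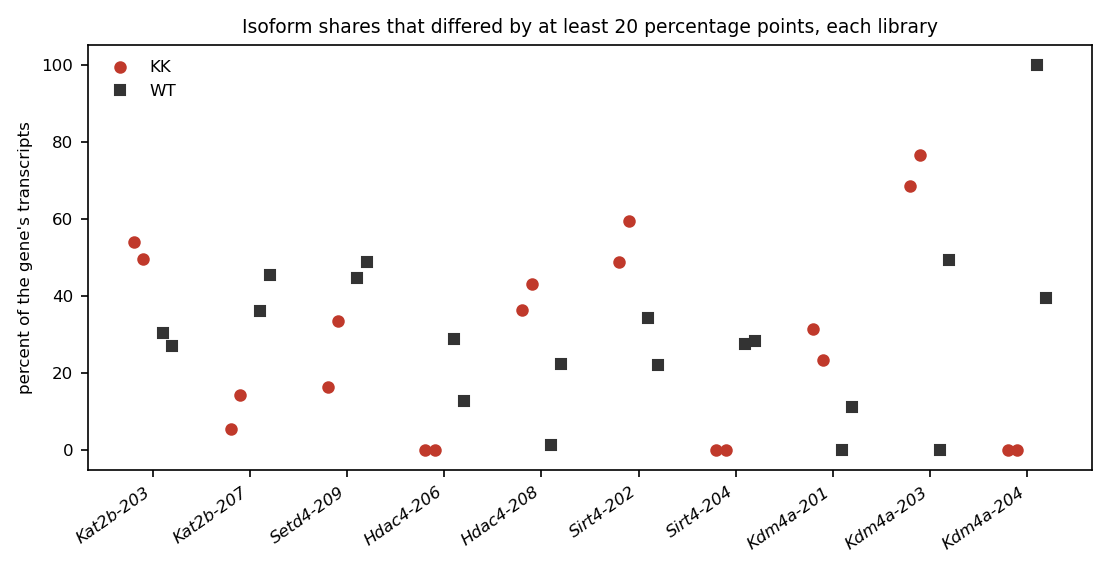
Percent of a gene's transcripts held by each of the 10 isoforms of members whose shares did not overlap between genotypes and differed by at least 20 percentage points, KK as red circles and WT as black squares. Kat2b-203 and Sirt4-204 show close libraries within each genotype, and the Kdm4a and Hdac4 isoforms show WT libraries far apart.

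Members that fell, rose or were not called differed in level and length. The 29 that fell had a median level of 33.4 TPM and a median effective length of 3016 bases, the 11 that rose 7.13 TPM and 2092 bases, and the 30 not called 3.16 TPM and 1867 bases. Over all tested genes the medians were 29.3 TPM and 2459 bases for those that fell, 8.41 TPM and 1507 bases for those that rose, and 4.78 TPM and 1647 bases for those not called. The median fold of change was 1.70 for members that rose and 1.31 for members that fell, beside 1.78 and 1.28 for all genes called in each direction. In level, 39 members had a mean of at least 10 TPM over the 4 libraries and 9 had less than 1.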

How the data were processed

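RNA was sequenced from 2 KK and 2 WT libraries of elutriated pachytene spermatocytes, made with an unstranded kit, per the labels' protocols. Bowtie, mm10 and GRCm38 are named in the submitters' processing notes. The quantification tool and gene models behind the tables were not given in the sources used. The deposited gene tables hold the authors' expected counts, TPM and effective lengths, and the deposited isoform tables the percent of a gene's transcripts in each isoform, per the file headers. Symbols, biotypes and coordinates came from the GENCODE M21 annotation, in which 55104 of 55364 identifiers were found.

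Expected counts were rounded and tested over all genes with edgeR 4.0.16 in R 4.3.3 (TMM factors, default expression filter, quasi-likelihood fit on genotype, Benjamini-Hochberg adjustment at 0.05), which kept 16571 genes and all 70 members. The standard error is the size of the log2 fold change over the root of the F statistic. CPM are TMM-scaled, fold changes come from normalised counts, and deposited TPM values, divided by length, compare levels between genes. The code was tested on simulated data. Across genes, which are not independent, Pearson's r of log2(CPM + 1) between libraries was 0.995 for the KK pair, 0.996 for the WT pair and 0.983 to 0.984 across genotypes.

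The members, role classes, partner lists, markers and tests were chosen with earlier results of these data known. Values per library are given for called members without overlap in CPM (at most 12 in each direction, by size of change), the most abundant member of each class, members on X or Y, and up to 2 risers and 2 fallers of each partner list with at least 1 CPM; some others are named with values as well, chosen after their values were seen. The results of 1 member are counted but not reported here by name. The alternatives were other scaling factors, library size alone, DESeq2 1.42.0, limma 3.58.1 on log2(TPM + 1), effective length offsets, no expression filter or a stricter one, a replicate block, other limits for isoform shares, and each library left out in turn.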

Additional observations from a re-analysis of the deposited data

How the results depend on the processing

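Members higher in KK numbered 11 and members lower 29. Under limma on log2(TPM + 1) they numbered 4 and 18, and with effective length offsets 6 and 23, beside 2275 and 1551 (13.7% and 9.36%), and 2379 and 2283 (14.4% and 13.8%), of all genes. With each library left out in turn they ranged over 8 to 11 higher and 25 to 28 lower, beside at least 16.6% higher and 17.1% lower of all genes each time. Library size scaling alone gave 13 higher and 25 lower, and over all genes 4521 higher and 2516 lower, against 3648 and 3589 with TMM factors. DESeq2 gave 8 and 25, beside 2035 and 2518 (7.59% and 9.39%) of the 26828 genes it was run on. Of the 40 called members, 21 (4 higher, 17 lower) kept call and direction under all 13 alternatives, and 19 lost the call under at least 1. The sign turned in 1, Kmt5b, at 0.04 under limma (adjusted p = 0.903) and 0.06 with effective length offsets (adjusted p = 0.858); the cause was not tested. Members with few reads that rose (Hdac9, Prmt2, Kdm1b) also lost the call under DESeq2 (adjusted p = 0.16, 0.17 and 0.202). Of the uncalled members 4 gained a call somewhere: Kdm8, Kdm4c, Prmt7 and Sirt3. Lysine methyltransferases that fell numbered 6 under limma and 7 with effective length offsets, against 8, and demethylases 5 under both, against 8. Fallers also dropped under limma among the other acetyltransferases and their complexes (11, against 22), the corepressors (9, against 20), the other methyltransferases (2, against 7) and the other bromodomain genes (9, against 17).

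Libraries of the same replicate number showed no shared shift (r = -0.0819 between the differences of libraries 1 and 2 in each genotype). This value cannot show whether the libraries were prepared in pairs. A replicate block left 11 members higher and 29 lower. Members with shifted isoform shares numbered 5, 11 with a limit of 10 percentage points (19.3%, beside 20.4% of all genes), 2 with at least 200 counts in every library (4.55%, beside 3.9%), and 7 to 8 with 1 library left out (12.3% to 14.0%, beside 11.3% to 12.3%); the shares of members lie near those of all genes.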
